A study of Saccharomyces cerevisiae with 24 samples.

Results

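The 8 genes described here were followed across the 8 strains: ENT4, RPR2, RIM9, SLD7 and AAR2, whose signal was much lower in the single deletion strains, and PUF3, SPC1 and SUS1, whose signal was higher. They were chosen by these differences, that is by the measured values of the single deletion strains against the reference, which are therefore given as a description without a test. These 8 are among 5449 genes measured on the arrays, and each has 1 probe set that is its own. Snf1 is the AMP-activated protein kinase of yeast, and its β-subunit is Sip1, Sip2 or Gal83. Snf1 is needed when glucose runs short, and each β-subunit joins the catalytic subunit to the γ-subunit Snf4 and helps to set where in the cell the kinase acts.

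The strains were a wild-type reference, strains deleted for SIP1, SIP2 or GAL83 (called sip1, sip2 and gal83), strains deleted for a pair of them (sip1 sip2, sip1 gal83 and sip2 gal83) and the triple strain without SIP1, SIP2 and GAL83. All grew in aerobic chemostats of 1 L at 30 °C and pH 5.0, with 10 g/L glucose in the feed, and samples came from the steady state at a dilution rate of 0.1 per h. Each strain has 3 biological replicates with 1 Affymetrix array each. The labels do not say whether a strain is 1 clone. Values are deposited log2 intensities, and an array of a whole culture cannot tell fewer expressing cells from less RNA per cell.

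The deleted genes read near 2, the lower end of the scale, in all but 2 of the 24 arrays, as labelled. The exceptions were sip1 gal83 replicate 2, with 9.72 for GAL83, and sip1 sip2 replicate 3, with 6.0 for SIP2. Over the genes that are no members, these 2 arrays were closer to each other (root mean square difference 0.192) than to any array of their own strains. The array sip2 gal83 replicate 1 lay 0.45 from its nearest array, where every other array lay at most 0.271 from theirs. Results on these strains are therefore also given without the 3 arrays, which earlier work on these data had already doubted. Array medians ran from 10.9 to 11.07. The lower quartile of an array was 9.85 to 9.89 in the reference and between 9.56 and 9.7 in the single deletion strains. Weak signals in general were thus lower there. The quartile was 9.79 to 9.87 in sip1 sip2 and 9.77 to 9.88 in sip1 gal83. It was 9.69 to 9.73 in sip2 gal83 and 9.74 to 9.81 in the triple strain.

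The members come from unrelated processes. ENT4 (YLL038C) encodes an epsin-like protein, RPR2 (YIR015W) a subunit of RNase P, which trims transfer RNA precursors, and RIM9 (YMR063W) a membrane protein of the Rim101 pathway, which senses alkaline pH. SLD7 (YOR060C) encodes a partner of Sld3 at the start of DNA replication, and AAR2 (YBL074C) a factor that helps assemble the U5 particle of the spliceosome. PUF3 (YLL013C) encodes an RNA-binding protein that controls messages for mitochondrial proteins. SPC1 (YJR010C-A) encodes a subunit of the signal peptidase, and SUS1 (YBR111W-A) a protein shared by SAGA, a transcription complex, and TREX-2, a message export complex, from a gene with introns. Of the 8, 6 have a mean over the arrays under 9.75, the level that bounds the lowest 25% of genes, while SPC1 and SUS1 lie above it.

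In ENT4 the reference arrays read 7.92, 7.61 and 8.25, and those of sip1 sip2 read 7.61, 7.22 and 7.97. The single deletion arrays read 4.19, 4.14 and 4.08 in sip1, 3.96, 3.67 and 4.14 in sip2, and 4.98, 4.29 and 4.22 in gal83. The remaining strains read 7.15, 7.65 and 5.97 in sip1 gal83, 4.90, 5.83 and 6.68 in sip2 gal83, and 5.65, 5.64 and 4.63 in the triple strain. Every single deletion array was thus at least 2 log2 units below every reference and sip1 sip2 array, and the sip2 gal83 and triple arrays lay mostly in between. The mean was 7.92 ± 0.32 (SD, n = 3) in the reference against 4.14 ± 0.059 in sip1, 3.92 ± 0.23 in sip2 and 4.5 ± 0.42 in gal83, differences of -3.79, -4.0 and -3.42. ENT4 ranked 5, 4 and 5 among all genes by the size of its fall in these strains, the deleted genes included.

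RPR2 followed the same steps. It read 7.45, 7.46 and 7.89 in the reference and 7.14, 7.45 and 7.02 in sip1 sip2. It read 3.93, 3.82 and 3.93 in sip1, 3.97, 3.93 and 3.55 in sip2, and 5.46, 4.80 and 3.52 in gal83. Replicates of gal83 were spread over nearly 2 log2 units, while those of the other single deletion strains were within 0.5. In sip1 gal83 the arrays read 6.58, 6.96 and 5.60, in sip2 gal83 5.40, 5.57 and 5.55. The triple strain gave 5.57, 5.57 and 5.22. The sip2 gal83 and triple arrays, with means of 5.51 ± 0.093 and 5.45 ± 0.2, were above all arrays of sip1 and sip2 and below all of the reference. Against the reference the means differed by -3.71 in sip1, -3.79 in sip2 and -3.01 in gal83.

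RIM9 gave 7.76, 7.49 and 7.59 in the reference and 7.51, 7.16 and 7.57 in sip1 sip2. Its single deletion arrays gave 4.33, 3.43 and 4.54 in sip1, 3.94, 3.10 and 3.61 in sip2, and 5.51, 4.27 and 4.79 in gal83. Its other arrays gave 7.39, 7.72 and 5.71 in sip1 gal83, 3.14, 5.91 and 5.29 in sip2 gal83, and 5.11, 5.29 and 5.51 in the triple strain. The low value of 3.14 belongs to sip2 gal83 replicate 1, the array that stands apart from all others. The differences from the reference mean of 7.61 ± 0.14 were -3.51 in sip1, -4.07 in sip2 and -2.75 in gal83.

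SLD7 was weaker throughout, at 6.09, 6.32 and 6.24 in the reference. It read 2.75, 3.02 and 3.32 in sip1, 2.81, 2.50 and 2.75 in sip2, and 3.43, 2.93 and 2.75 in gal83, with mean differences from the reference of -3.18, -3.53 and -3.18. In sip1 sip2 it read 6.02, 4.95 and 4.74, all below the reference, and in sip1 gal83 5.60, 4.21 and 3.43. The sip2 gal83 arrays read 3.43, 4.06 and 3.43 and the triple arrays 3.02, 3.43 and 3.39. The value 3.43 recurred in 5 arrays of 4 strains. The low values of SLD7 lie near the lower end of the scale, so the sizes of its falls are uncertain. Of the 5 genes SLD7 was the only one with every sip1 sip2 array below every reference array.

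AAR2 read 4.56, 4.98 and 4.77 in the reference, and in every single deletion array it read between 2.13 and 2.15, the lower end of the scale. The triple arrays lay there too, at 2.13, 2.15 and 2.15, and those of sip2 gal83 at 2.15, 2.22 and 2.15. In sip1 sip2 it read 3.79, 4.91 and 4.26. The arrays of sip1 gal83 split, with 4.68 and 4.29 in replicates 1 and 2 and 2.15 in replicate 3. The differences of about -2.6 from the reference (-2.64 in sip1 and sip2, -2.63 in gal83) depend on that lower end and cannot be read as a full size.

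**Figure D1:**
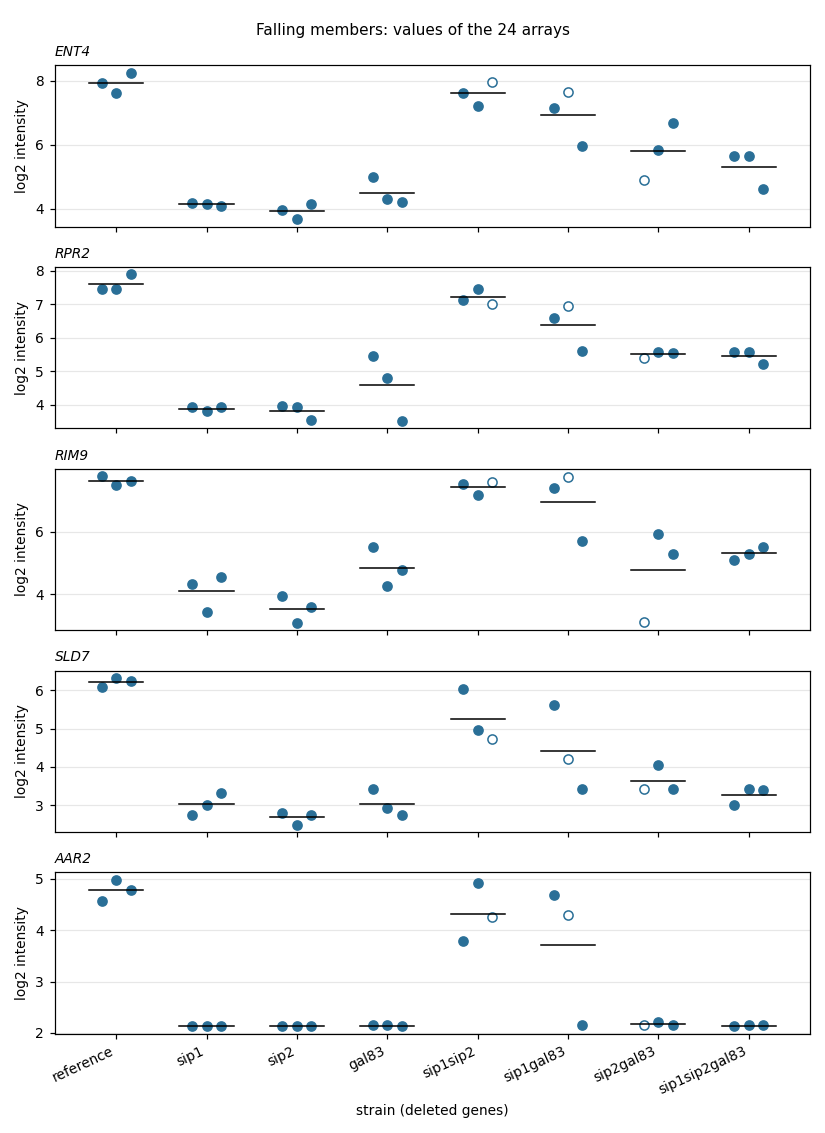
Log2 intensity of ENT4, RPR2, RIM9, SLD7 and AAR2 (y axes, each from its own range) in the 8 strains (x axis), with 1 point per array in the order of replicates 1 to 3 and a bar at the mean of 3. Open points are the 3 doubted arrays. The points of sip1, sip2 and gal83 are low in every panel, AAR2 at 2.13 to 2.15, while the reference and sip1 sip2 points are high and sip1 gal83 replicate 3 lies below the other replicates of its strain.

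The 5 genes divided the arrays in the same place. In each, the 8 highest arrays were the 3 of the reference, the 3 of sip1 sip2, and replicates 1 and 2 of sip1 gal83. The gap between these and the other 16 arrays ran from 6.68 to 7.15 in ENT4, from 5.6 to 6.58 in RPR2, from 5.91 to 7.16 in RIM9, from 4.06 to 4.21 in SLD7 and from 2.22 to 3.79 in AAR2. The 3 reference and 9 single deletion arrays in this divide also chose the members, so nothing is read from the share of other genes that show it. Over all genes 172 of 5449 (3.16%) have the same 8 arrays highest and 23 (0.422%) have them lowest, among the latter SPC1. Replicates 1 and 3 of sip1 gal83 carry the same label and both lack signal for SIP1 and GAL83 (2.03 and 2.07), and they lie on opposite sides of this divide.

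Among the genes that were higher, SPC1 read 9.44, 9.22 and 9.44 in the reference and 9.44, 9.43 and 9.36 in sip1 sip2. The single deletion arrays read 10.42, 10.62 and 10.78 in sip1, 10.91, 10.81 and 10.61 in sip2, and 11.03, 10.66 and 10.71 in gal83. The 9 single deletion arrays were all above the other 15, of which sip2 gal83 replicate 1, at 10.37, came closest. The remaining arrays read 9.42, 9.42 and 10.04 in sip1 gal83, 10.37, 9.90 and 9.97 in sip2 gal83, and 9.75, 9.79 and 9.70 in the triple strain. The means of the single deletion strains, 10.61 ± 0.18, 10.78 ± 0.15 and 10.8 ± 0.2, were 1.24, 1.41 and 1.43 above the reference mean of 9.37 ± 0.13.

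SUS1 was likewise highest in the single deletion strains. The reference arrays read 9.74, 9.68 and 9.88, those of sip1 11.26, 10.76 and 10.85, those of sip2 11.10, 11.36 and 11.12, and those of gal83 11.10, 11.05 and 11.10. The other strains read 9.72, 10.45 and 9.75 in sip1 sip2, 9.74, 9.91 and 9.89 in sip1 gal83, 10.67, 10.05 and 10.29 in sip2 gal83, and 9.75, 9.80 and 9.97 in the triple strain. Here too the 9 single deletion arrays were the highest, an order that 105 of the 5449 genes (1.93%) share. The means were 1.19, 1.43 and 1.32 above the reference in sip1, sip2 and gal83.

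PUF3 was clearly higher in sip1 and sip2 but not in gal83, so the data go only partly with a rise in every single deletion strain. The signal of PUF3 was weak in every array, so the sizes of its differences are uncertain. It read 4.0, 3.98 and 4.15 in the reference, 5.64, 6.14 and 5.98 in sip1, and 5.80, 5.03 and 5.42 in sip2. The gal83 arrays read 5.21, 4.13 and 4.31, and replicate 2 fell within the reference range. Its mean difference was 1.88 in sip1, 1.37 in sip2 and 0.51 in gal83, where it ranked 183 among all genes by size of rise, against 6 and 11 in the others. Lower values came in the multiple deletions, with 4.03, 2.76 and 4.01 in sip1 sip2, 3.36, 3.30 and 4.41 in sip1 gal83, 4.02, 4.01 and 4.32 in sip2 gal83, and 4.01, 3.04 and 2.36 in the triple strain.

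**Figure D2:**
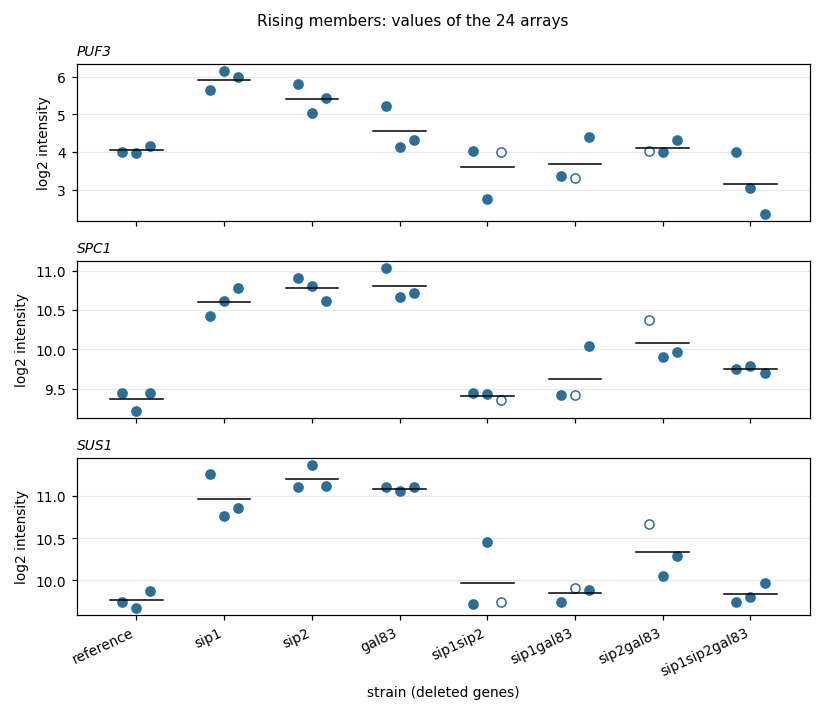
Log2 intensity of PUF3, SPC1 and SUS1 (y axes, each from its own range) in the 8 strains (x axis), with 1 point per array in the order of replicates 1 to 3, a bar at the mean of 3, and open points for the 3 doubted arrays. SPC1 and SUS1 are higher in all 9 single deletion arrays than elsewhere, and PUF3 in gal83 is spread from 4.13 to 5.21.

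Read against the reference, all 3 arrays lay below all 3 reference arrays for 5 of the 5 falling members in sip1, sip2 and gal83, where 37.6%, 42% and 38.3% of all genes did. They lay above for 3, 3 and 2 of the 3 rising members, where 17.6%, 14.7% and 16.2% of all genes did. Because these arrays chose the members, nothing follows from the counts. In the strains with 2 or 3 deletions the falling members lay below in 1 of 5 cases in sip1 sip2 and 2 in sip1 gal83. In both sip2 gal83 and the triple strain they lay below in 5. The shares of all genes in these 4 strains were 9.18%, 20.7%, 28.7% and 34.7%. The rising members lay above in 0 of 3 cases in sip1 sip2 and sip1 gal83, 2 in sip2 gal83 (SPC1 and SUS1) and 1 (SPC1) in the triple strain (5.18%, 14.5%, 13.6% and 23.5% of all genes). These comparisons share the reference arrays with the choice, so they are given without a test. The median difference of the falling members was -0.4, -1.06, -2.58 and -2.61 in these 4 strains in the same order, beside -0.016, -0.014, -0.069 and -0.039 over all genes. That of the rising members was 0.04, 0.08, 0.57 and 0.07.

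Subtracting array medians changed no sign among these differences. Quantile normalization shrank the falls of ENT4 to -3.07, -3.24 and -2.92 in sip1, sip2 and gal83 and those of SLD7 to -2.34, -2.84 and -2.56. It raised the difference of PUF3 in gal83 to 1.09 and turned that of PUF3 in sip1 gal83 from -0.36 to 0.17.

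The strains with 2 or 3 deletions allow a test that uses neither the reference nor the single deletion arrays for the difference. Members and tests were chosen with earlier results of these data known, so the values of these strains were not unseen. All 6 pairs of these 4 strains were compared, with a linear model over all 24 arrays for the spread. The p-values were adjusted over all genes in each comparison. Arrays that chose the members thus enter the spread behind these p-values, though not the differences. Spreads were unequal between strains. The SD of AAR2 was 0.0029 in sip1, at the lower end of the scale, against 1.4 in sip1 gal83. That of RPR2 was 0.99 in gal83 against 0.093 in sip2 gal83. The question is which of these strains have a high or a low level of the members. Of them sip1 sip2 keeps GAL83, sip1 gal83 keeps SIP2, sip2 gal83 keeps SIP1 and the triple strain keeps none. A remaining β-subunit cannot be told apart here from other traits of its strain.

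All 5 falling members were lower in sip2 gal83 than in sip1 sip2, and SPC1 was higher, where 30.5% of all genes were called. ENT4 fell by 1.79 ± 0.43 (SE, adjusted p = 0.00531), RPR2 fell by 1.69 ± 0.36 (adjusted p = 0.00267) and RIM9 fell by 2.63 ± 0.58 (adjusted p = 0.00312). SLD7 fell by 1.60 ± 0.40 (adjusted p = 0.00748), and AAR2 fell by 2.15 ± 0.41 (adjusted p = 0.00135), there reading 2.22 or less. SPC1 rose by 0.67 ± 0.15 (adjusted p = 0.00438). PUF3, at 0.51, and SUS1, at 0.36 with a 95% interval from -0.01 to 0.73, did not pass (adjusted p = 0.365 and 0.123). The lower members thus passed in 5 of 5 cases against 20.6% of all genes that were lower, and the higher ones in 1 of 3 against 9.91%. The 5 are all weak genes, and the lower quartiles were also lower in sip2 gal83 than in sip1 sip2. No share is given here or below for weak genes alone, so whether the falls are particular to the members was not tested. Without the 3 doubted arrays ENT4, at -1.16, and SPC1, at 0.50, no longer passed (adjusted p = 0.0644 and 0.055), while RPR2, RIM9, SLD7 and AAR2 did, between -1.73 and -2.17. Fitted on the compared groups alone, ENT4, RIM9, SLD7 and SPC1 did not pass (adjusted p = 0.112, 0.119, 0.0943 and 0.0664). SUS1 passed without sip1 sip2 replicate 2 or sip2 gal83 replicate 2 (adjusted p = 0.0113 and 0.0425).

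The triple strain gave the same falls against sip1 sip2, a comparison that differs by the deletion of GAL83. ENT4 fell by 2.29 ± 0.43 (adjusted p = 0.000552), RPR2 fell by 1.75 ± 0.36 (adjusted p = 0.0013) and RIM9 fell by 2.11 ± 0.58 (adjusted p = 0.00986). SLD7 fell by 1.96 ± 0.40 (adjusted p = 0.00129) and AAR2 fell by 2.18 ± 0.41 (adjusted p = 0.000651). The sip2 gal83 and triple arrays of AAR2 lie at the lower end of the scale, so none of its falls against sip1 sip2 or sip1 gal83 can be read as a full size. Those arrays of SLD7 lie near that end, so the sizes of its falls are uncertain. Lower calls made up 18% of all genes here. Of the other group 0 of 3 passed, where 14.1% of all genes were higher: PUF3 stood at -0.46, SPC1 at 0.34 and SUS1 at -0.13 (adjusted p = 0.428, 0.105 and 0.613), and the 95% interval of SPC1 alone was clear of 0 before adjustment. The 5 falls passed in each fit that left out 1 array of the compared strains, and without the 3 doubted arrays they ran from -1.84 to -2.21. Fitted on the compared groups alone, SPC1 passed as well (adjusted p = 0.00289).

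Between sip1 gal83 and sip1 sip2 no member passed, by the same linear model, where 4.57% of all genes were called, 2.73% lower and 1.84% higher. The falling members stood between -0.47 in RIM9 and -0.82 in RPR2 and SLD7, with 95% intervals that reach from -1.58 to -0.06 for RPR2 and from -1.68 to 0.74 for RIM9. RPR2 was the 1 member with an unadjusted 95% interval clear of 0 (adjusted p = 0.228). SLD7, at -0.82, passed at -1.41 without sip1 gal83 replicate 1 (adjusted p = 0.0307). Without the doubted arrays no member passed either, and RPR2 stood at -1.2, RIM9 at -0.78, AAR2 at -0.94 and PUF3, from 0.09, at 0.48 (adjusted p = 0.0937, 0.354, 0.276 and 0.627). The divided replicates of sip1 gal83 widen the spread of each falling member, with SDs of 0.87 in ENT4, 0.7 in RPR2, 1.1 in RIM9 and SLD7, and 1.4 in AAR2.

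Against sip1 gal83, the sip2 gal83 strain had lower RIM9, which fell by 2.16 ± 0.58, and lower AAR2, which fell by 1.53 ± 0.41 (adjusted p = 0.0245 and 0.0255), where 12.5% of all genes were called and 9.78% were lower. In the triple strain ENT4 fell by 1.62 ± 0.43 and AAR2 fell by 1.56 ± 0.41 (adjusted p = 0.0188 and 0.0192, 13.2% of all genes called and 7.14% lower). These 4 calls rest on few arrays. Without sip1 gal83 replicate 1 their adjusted p-values were 0.106, 0.136, 0.0764 and 0.119, and without replicate 2, the array with GAL83 signal, 0.107, 0.115, 0.112 and 0.107. RIM9 and AAR2 also missed without sip2 gal83 replicate 1 (adjusted p = 0.106 and 0.0665). In the triple strain ENT4 missed without its replicate 3 (adjusted p = 0.0955), and AAR2 without its replicate 1, 2 or 3 (adjusted p = 0.0533, 0.0566 and 0.0539). Fitted on the compared groups alone, none of the 4 calls passed. RIM9 and AAR2 then had adjusted p = 0.334 and 0.355 in sip2 gal83, and ENT4 and AAR2 0.0878 and 0.165 in the triple strain. Without the 3 doubted arrays ENT4 still passed in the triple strain, at -1.25 (adjusted p = 0.0434), and the other 3 calls did not (adjusted p = 0.324 for RIM9, and 0.214 and 0.0925 for AAR2). Leaving out sip1 gal83 replicate 3 instead added calls. ENT4, at -1.60, RPR2, at -1.26, SLD7, at -1.27, and SPC1, at 0.66, then passed in sip2 gal83 (adjusted p = 0.0221, 0.0306, 0.0383 and 0.00817). RPR2, at -1.32, RIM9, at -2.25, and SLD7, at -1.63, passed in the triple strain (adjusted p = 0.0205, 0.0143 and 0.00814). Further calls came without sip2 gal83 replicate 3 for ENT4, at -1.56, and without its replicate 2 for SPC1, at 0.54, and SUS1, at 0.63 (adjusted p = 0.0221, 0.0349 and 0.0257).

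The triple and sip2 gal83 strains, which differ by the deletion of SIP1, were not told apart in any member, where 14.5% of all genes were called, 4.94% lower and 9.54% higher. RPR2 differed by -0.06 with a 95% interval from -0.82 to 0.70, and ENT4 by -0.50 from -1.40 to 0.40. Before adjustment PUF3, SPC1 and SUS1 had 95% intervals clear of 0. SUS1, at -0.50 ± 0.17, and PUF3, at -0.98 ± 0.41, came closest to the threshold (adjusted p = 0.0651 and 0.123). Without the doubted arrays no member passed either, with ENT4 at -0.95, PUF3 at -1.03, SUS1 at -0.33 and RIM9, from 0.53, at -0.29 (adjusted p = 0.116, 0.179, 0.252 and 0.766). AAR2 lay at the lower end of the scale in both strains, so no difference could be seen there. SUS1 passed without sip2 gal83 replicate 2 (adjusted p = 0.0232) and PUF3, at -1.41, without triple replicate 1 (adjusted p = 0.0339).

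**Figure D3:**
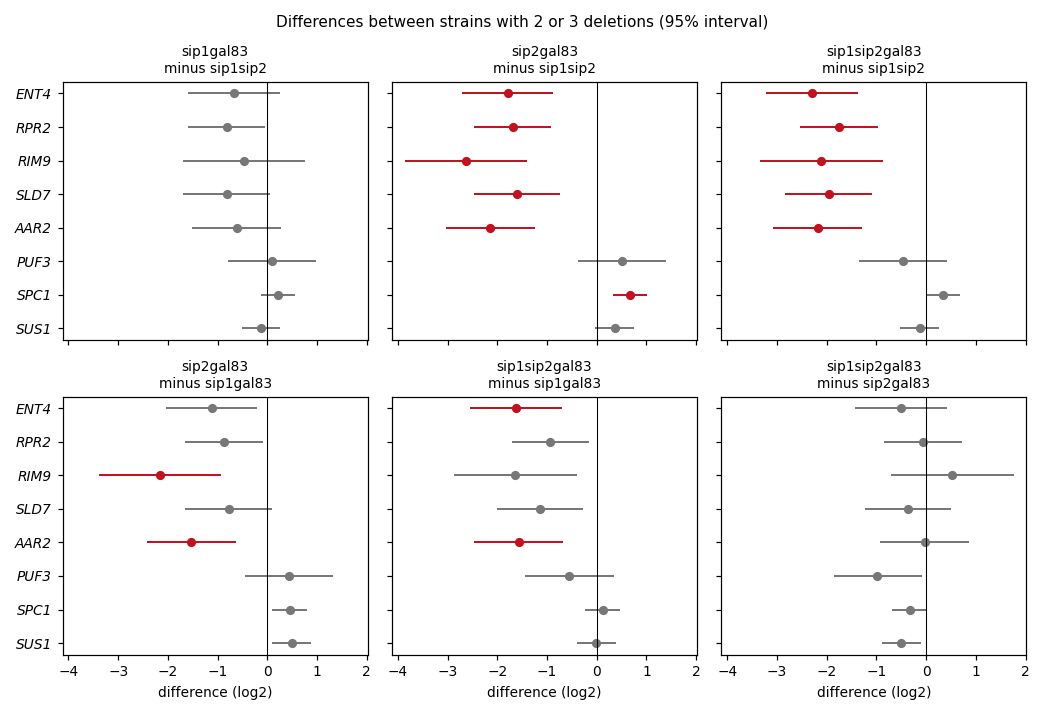
Differences of the 8 members (y axis) in log2 units (x axis) for the 6 pairs of strains with 2 or 3 deletions, points with 95% intervals of the linear model over 24 arrays, n = 3 per strain. Red marks an adjusted p under 0.05. The 5 falling members are red and between -1.60 and -2.63 in the comparisons of sip2 gal83 and of the triple strain with sip1 sip2.

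Genes that work with a member, or belong to its pathway, its family or a related complex, are here called its partners. They were examined in the single deletion strains, where they had no part in the choice. Of 70 such genes 29 were called in sip1 (9 higher and 20 lower), 27 in sip2 (5 higher and 22 lower) and 26 in gal83 (6 higher and 20 lower). These are 41.4%, 38.6% and 37.1%, beside 39.4%, 40.7% and 41.2% of all genes, so the partners were called about as often as any gene. Falls were called for 29.1%, 32.1% and 30.6% of all genes and rises for 10.3%, 8.55% and 10.6%. Their median differences of -0.13, -0.16 and -0.12 lie beside -0.087, -0.12 and -0.097 over all genes. The largest partner change was that of POP3 in sip2, at -1.38, less than any fall of a member in the single deletion strains. The members were chosen by such falls, so that order of sizes was set by the choice. Directions over all genes depend on the scaling. Of all genes 562 rose and 1586 fell in sip1, 466 and 1751 in sip2, and 575 and 1668 in gal83. With array medians subtracted these were 1272 and 1024, 1247 and 1004, and 1263 and 997.

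Among subunits of RNase P and of the related RNase MRP, 3 of 10 fell in sip1, 4 in sip2 and 3 in gal83, while 2, 0 and 1 rose. POP3, a subunit of both enzymes, differed by -1.02 ± 0.21, -1.38 ± 0.21 and -1.02 ± 0.21 (adjusted p = 0.00115, 7.49e-05 and 0.00108). RMP1, of RNase MRP only, fell, with differences of -0.60, -0.94 and -0.56 (adjusted p = 0.0126, 0.000469 and 0.0177). Quantile normalization reduced RMP1 to -0.22 in both sip1 and gal83 and ended both calls (adjusted p = 0.331 and 0.328). Its call in sip1 also ended without reference replicate 2 or sip1 replicate 3 (adjusted p = 0.0628 and 0.058) and in gal83 without reference replicate 2 or gal83 replicate 2 (adjusted p = 0.081 and 0.0542).

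In the Rim101 pathway 4 of 8 genes fell in sip1, 3 in sip2 and 2 in gal83, and 1 rose in gal83. RIM13, the protease that activates Rim101, fell, with differences of -1.01 ± 0.23, -1.09 ± 0.23 and -0.82 ± 0.23 (adjusted p = 0.00211, 0.00107 and 0.00823), values that quantile normalization reduced to -0.35, -0.41 and -0.30 and that then no longer passed (adjusted p = 0.177, 0.119 and 0.254). RIM101, the transcription factor, fell by 0.41 in sip1 and fell by 0.27 in gal83 (adjusted p = 0.00434 and 0.0473) and stood at -0.24 in sip2 (adjusted p = 0.0677). The sip2 value passed with array weights, without the 3 doubted arrays and with the compared groups alone (adjusted p = 0.000565, 0.00715 and 0.0203). The gal83 call ended without any 1 reference array or without gal83 replicate 1 or 3 (adjusted p = 0.113, 0.126, 0.0523, 0.0914 and 0.163). It also ended with median centring, at -0.15, with quantile normalization, at -0.20, and with raised low values (adjusted p = 0.278, 0.147 and 0.0646).

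Of 8 membrane traffic genes listed with ENT4, 3, 3 and 2 fell in sip1, sip2 and gal83 and 0 rose. ENT1, an epsin, fell, with differences of -0.34, -0.43 and -0.38 (adjusted p = 0.0109, 0.00208 and 0.00557) and ENT5 fell, with differences of -0.18, -0.35 and -0.25 (adjusted p = 0.0279, 0.000207 and 0.003). In sip1 the ENT1 call ended without reference replicate 2 (adjusted p = 0.0527), and that of ENT5 without reference replicate 3 or sip1 replicate 2 or 3 (adjusted p = 0.128, 0.0662 and 0.11). Median centring reduced ENT5 to -0.07 in sip1 and -0.14 in gal83 and ended both calls (adjusted p = 0.356 and 0.0752), and the sip1 call also ended with the compared groups alone (adjusted p = 0.0527). Quantile normalization ended the calls of ENT5 in sip1 and of ENT1 in sip1 and gal83 (adjusted p = 0.169, 0.064 and 0.0547). Of 8 genes for the start of replication only CDC45, a part of the replicative helicase, was called in any of the 3 strains, and it differed by -0.35, -0.62 and -0.64 (adjusted p = 0.00564, 6.15e-05 and 5.07e-05). In sip1 quantile normalization reduced it to -0.19 (adjusted p = 0.103). Of 8 genes of the U5 and tri-snRNP particles 2, 3 and 2 fell and 2, 1 and 0 rose. SNU114, a GTPase of U5, fell, with differences of -0.46, -0.52 and -0.46 (adjusted p = 0.00127, 0.000398 and 0.00109). PRP28, a helicase, rose by 0.46 in sip1 (adjusted p = 0.0471), a call that ended without any 1 of the 6 arrays compared (adjusted p between 0.0661 and 0.117), and stood at -0.28 in sip2 and 0.35 in gal83 (adjusted p = 0.217 and 0.125). The latter passed without gal83 replicate 2 (adjusted p = 0.0375). It also passed with median centring, at 0.47, and with quantile normalization, at 0.67 (adjusted p = 0.0344 and 0.00461).

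PUF proteins and known Puf3 targets gave 2, 1 and 2 higher and 2, 3 and 3 lower genes of 10. COX17, the best-studied Puf3 target and a copper chaperone of cytochrome oxidase, rose by 0.63, 0.61 and 0.63 (adjusted p = 0.000461, 0.00053 and 0.000426), while BCS1, another mitochondrial target, fell, with differences of -0.41, -0.51 and -0.35 (adjusted p = 4.62e-05, 4.66e-06 and 0.000167). Of 8 genes of the signal peptidase and the translocon 2, 2 and 1 rose and 0, 1 and 1 fell. SEC63 rose by 0.29, 0.32 and 0.32 (adjusted p = 0.00699, 0.00288 and 0.00354), though in sip1 not with the compared groups alone (adjusted p = 0.0561). SEC62 fell by 0.31 in sip2 and by 0.27 in gal83 (adjusted p = 0.0062 and 0.0141) and stood at -0.21 in sip1 (adjusted p = 0.0522). The sip1 value passed with array weights, a replicate block or the compared groups alone (adjusted p = 0.00271, 0.0446 and 0.0406). It also passed without the 3 doubted arrays (adjusted p = 0.0317). The gal83 call of SEC62 ended without reference replicate 2 or gal83 replicate 1 (adjusted p = 0.0695 and 0.0842), under quantile normalization (0.0709) and with the compared groups alone (0.0584). Median centring ended both calls, at -0.17 in sip2 and -0.16 in gal83 (adjusted p = 0.131 and 0.164). In SAGA and TREX-2, where SUS1 was higher, 5, 4 and 6 of 10 genes fell and 1 rose in each strain. The SAGA genes SPT20 and ADA2 fell, with differences of -0.85, -0.91 and -0.66 and of -0.69, -0.78 and -0.67 (adjusted p = 0.000293, 0.000137 and 0.00204 for SPT20, and 0.000351, 9.28e-05 and 0.00039 for ADA2).

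**Figure D4:**
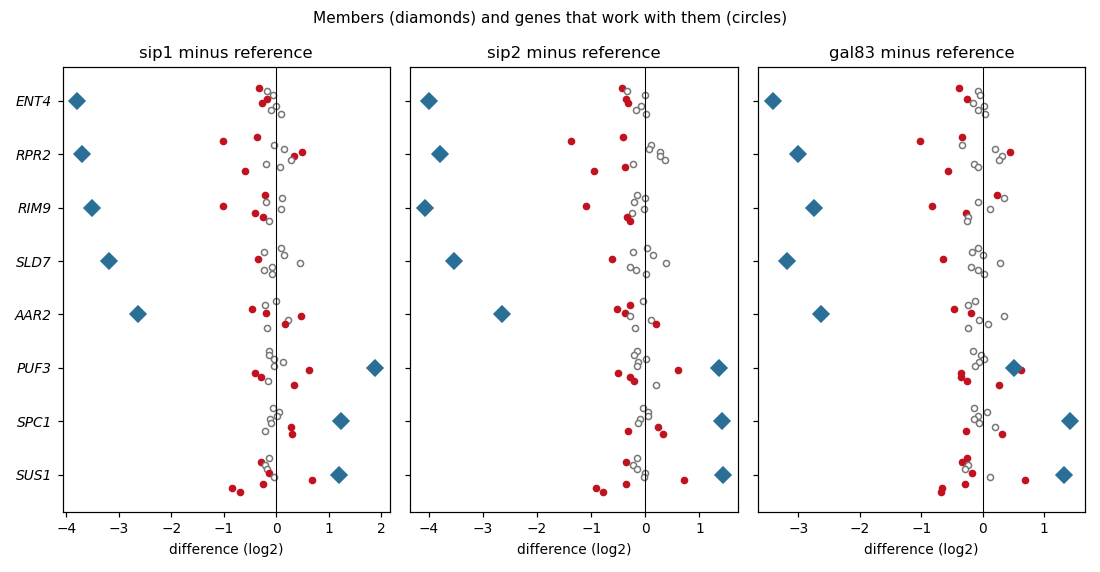
Differences from the reference in log2 units (x axis) in sip1, sip2 and gal83 for each member (blue diamonds) and the 8 to 10 genes listed as its partners (circles, 1 line per member on the y axis, spread in height to be seen apart). Filled red circles are genes with an adjusted p under 0.05 and open ones did not pass. Except for PUF3 in gal83, at 0.51, the members lie outside the range of their partners. The members were chosen by these differences, so nothing follows from that.

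The neighbours of the members on the chromosome gave no falls or rises of like size. Only the members were chosen for large differences in these strains, so the contrast in size is no result about them. Of 16 next protein-coding genes on either side, 14 were measured, and 8, 7 and 5 of these (57.1%, 50% and 35.7%) were called in sip1, sip2 and gal83, beside 39.4%, 40.7% and 41.2% of all genes, with none overlapping a member in the reference gene table. The 4 called in all 3 strains, named after their values were seen, stayed under 1 log2 unit. CYC8, a corepressor gene next to SUS1, fell, with differences of -0.79, -0.70 and -0.57 (adjusted p = 0.00118, 0.00256 and 0.00999). EMC6, next to PUF3, rose by 0.40, 0.41 and 0.34 (adjusted p = 0.00332, 0.00236 and 0.00881). UBI4, the polyubiquitin gene beside ENT4, rose by 0.24, 0.16 and 0.25 (adjusted p = 0.00045, 0.0064 and 0.000234). RPS8A, a ribosomal protein gene beside AAR2 whose probe set is of the shared kind, rose by 0.17, 0.17 and 0.16 (adjusted p = 1.83e-05, 2.4e-05 and 3.9e-05).

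Likeness of pattern was measured as the root mean square difference between genes after each was centred on its mean over the 24 arrays, with no test. Values were not scaled by how much a gene varies, so genes that change less tend to have smaller distances. Among the members SPC1 and SUS1 were closest, at 0.25 log2 units, followed by ENT4 and RPR2 at 0.45 and SLD7 and AAR2 at 0.53. Outside the members YPT35, which encodes an endosomal protein, was nearest to ENT4, at 0.50, and to RIM9, at 0.52, and YEL076C-A, with a shared probe set, came next at 0.52 for both. For RPR2 these were NBL1, of the chromosomal passenger complex, at 0.41, and YMR084W, at 0.45. ECM2, a splicing factor gene, was nearest to SLD7 and to AAR2, at 0.37 each, and the autophagy gene ATG29 came next, at 0.44 and 0.40. HUB1, encoding a ubiquitin-like modifier that acts in splicing, lay 0.20 from SPC1, and SLF1, an RNA-binding protein gene, 0.23. CNL1 and ATG20 lay 0.23 and 0.24 from SUS1. PUF3 had no gene closer than 0.59 (YLR264C-A and CPD1).

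ECM2 and YPT35 show what these distances mean. ECM2 differed from the reference by -2.58, -2.55 and -2.48 in sip1, sip2 and gal83 and YPT35 by -3.15, -3.13 and -2.73. HUB1 differed by 0.76, 0.99 and 1.14. In all, 27 genes were lower by more than 2 in all 3 single deletion strains, and these include the 5 falling members. Another 16 were higher by more than 1 in all 3, among them SPC1 and SUS1 but not PUF3.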

How the data were processed

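RNA of 24 cultures, 3 for each of 8 strains, was measured on Affymetrix yeast arrays. The deposited values are log2 intensities per probe set, and the submitters' processing notes name RMA and affy, without versions; which arrays were normalized together is not given in the sources used here, nor is the array's genome build. Of 5716 probe sets, 5498 name 1 gene, 0 several and 218 none. All 5498 matched the R64 gene table, used for names and neighbours only, which updated 12 symbols. The probe set with the highest mean was kept per gene (5449 genes, 49 left out), 0 value columns were unused, and no filter was applied. Groups came from the sample titles. Differences between strain means came from 1 linear model of the 24 arrays (lmFit, contrasts.fit and eBayes of limma 3.58.1, R 4.3.3), with 16 residual degrees of freedom. A call is a two-sided Benjamini-Hochberg adjusted p under 0.05 over all genes of a comparison. The number of arrays limits the precision. Members, lists of partners and tests were chosen with earlier results of these data known. Named genes were all members, the 2 genes nearest in pattern to each, up to 2 called partners per member with the largest mean change, and neighbours called in all 3 single deletion strains beyond 1 log2 unit, of which there were 0. Arrays were compared at 2 decimals when judged as overlapping. No 2 arrays were identical (highest correlation 0.9987). Alternatives were median centring, quantile normalization, leaving out the lowest 25% of genes or raising values to their bound, trend and robust eBayes, array weights, fits on the compared groups alone or with a replicate block, and omission of single arrays or of 3 doubted ones. One further gene of the set and the genes listed with it are not reported here. Motifs were planned, but no promoter sequences were used here.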

Additional observations from a re-analysis of the deposited data

Results flagged for a closer look

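In several members a deletion moved the signal one way in the wild-type background and the opposite way in a strain that already carried another deletion, with every array of each pair of strains apart. These differences were not tested, since they contain the values that chose the members. Where a pair strain lies near the reference, they largely restate the falls or rises of that choice. How many of all genes show them was not counted, so nothing about the members follows from the counts below. As an example, deleting SIP1 changed ENT4 by -3.79 from the reference and by 3.68 from the sip2 strain. The size of the departure is given as the pair strain minus both single strains plus the reference, in log2 units.

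For SIP1 and SIP2 this held in all 8 members. It was 7.46 in ENT4, 7.1 in RPR2, 7.38 in RIM9, 5.73 in SLD7 and 4.83 in AAR2. It was -3.69 in PUF3, -2.61 in SPC1 and -2.41 in SUS1. In the single deletion strains AAR2 lay at the lower end of the scale and SLD7 near it.

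For SIP1 and GAL83 it held in 5 members, with 6.21 in ENT4, 5.5 in RPR2, 5.6 in RIM9, -2.41 in SPC1 and -2.43 in SUS1. For SIP2 and GAL83 it held in 2, with -2.13 in SPC1 and -2.17 in SUS1. The sip1 sip2 values include replicate 3, which has SIP2 signal, the sip1 gal83 values include replicate 2, which has GAL83 signal, and the sip2 gal83 values include replicate 1, which stands apart. Their part in these values was not tested.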

How the results depend on the processing

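Of 48 tests on members, 15 passed. Of 684 repeats under other settings, 584 stayed on the same side of the threshold without a change of sign. Differences that had not passed and became 0 with raised low values are counted among these. Of the rest, 42 lost a call, 38 gained one and 20, all of differences that had not passed, changed sign. The partner and neighbour values gave 777, 52, 10 and 1 of 840. Replicate numbers are not treated as pairs, since in only 1 of 28 pairs of strains did all same-numbered arrays deviate together with correlations over 0.1 (all pairs, -0.352 to 0.333). A replicate block left the member counts at 0, 6, 5, 2, 2 and 0 in the 6 comparisons (in the order of sip1 gal83, sip2 gal83 and triple against sip1 sip2, sip2 gal83 and triple against sip1 gal83, and triple against sip2 gal83), gave 30, 29 and 28 partners and 8, 8 and 5 neighbours, beside 29, 27 and 26 partners and 8, 7 and 5 neighbours without it, and among the named genes it changed only the call of SEC62 in sip1 (-0.21, adjusted p = 0.0446). Leaving out single arrays gave ranges of 0 to 1, 6 to 7, 5 to 5, 0 to 6, 0 to 5 and 0 to 1 members.

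In sip2 gal83 against sip1 sip2 the count of 6 became 1 without the lowest 25% of genes, 0 with values raised to their bound and 2 with the compared groups alone. In the triple strain against sip1 sip2 the first 2 of these gave 0 and 0. In sip2 gal83 against sip1 gal83 the 2 calls became 4 with median centring, 4 with quantile normalization, 1 without the lowest genes, 0 with raised values, 6 with array weights, 0 without the doubted arrays and 0 with the groups alone. In the triple strain against sip1 gal83 they became 5 with quantile normalization, 0 and 0 with the low-value settings, 5 with weights, 1 without the doubted arrays and 0 with the groups alone. In the triple strain against sip2 gal83 there were 2 with quantile normalization, 1 without the lowest genes and 3 with weights. The low-value settings leave out or level 6 of the 8 members by construction. Raising values also lifts the lower arrays of SPC1 and some of SUS1. With it SPC1 in sip2 gal83 against sip1 sip2 went from 0.67 to 0.33 (adjusted p = 0.0648). The groups alone leave fewer arrays for the spread and take it from the compared strains only. Whether either moved the counts was not tested. For the remaining settings the cause was not tested either. Array weights raised the partner calls from 27 to 43 in sip2 and from 26 to 41 in gal83.

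Signs turned for PUF3 in sip1 gal83 against sip1 sip2 (-0.08, weights), SPC1 (-0.08, raised values) and SUS1 (0.04 centred, 0.05 quantile, 0.02 without the doubted arrays) in the triple strain against sip1 gal83, and RIM9 in the triple strain against sip2 gal83 (-0.02 quantile, -0.09 weights, -0.29 without the doubted arrays). Quantile normalization also turned PRP28 in sip2 (0.16). Leaving out single arrays turned signs in these ranges. In sip1 gal83 against sip1 sip2 RIM9 ran from -0.86 to 0.15, AAR2 from -1.1 to 0.17, PUF3 from -0.33 to 0.30 and SUS1 from -0.25 to 0.11. For the triple strain SUS1 ran from -0.26 to 0.10 against sip1 sip2 and from -0.07 to 0.04 against sip1 gal83. In the triple strain against sip2 gal83 RPR2 ran from -0.11 to 0.06 and RIM9 from -0.29 to 1.09.

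Counts over all genes, which are 249, 1663, 1748, 683, 717 and 789 in the same order, moved most in 3 settings. Array weights gave 542, 2658, 1372, 2248 and 2026 in all but the second. The doubted arrays left out gave 634 and 1091 in the first and second and 183 in sip2 gal83 against sip1 gal83. The groups alone gave 1, 210, 4, 1109 and 232 in all but the third. Single arrays left out gave as few as 91 in the first, and, against sip1 gal83, 189 to 1209 in sip2 gal83 with 379 for the triple strain, and 492 in the last. Median centring changed the higher and lower calls from 540 and 1123 to 781 and 868 in the second, from 766 and 982 to 960 and 802 in the third, from 150 and 533 to 310 and 273 in sip2 gal83 against sip1 gal83 and from 328 and 389 to 489 and 253 in the triple strain against it. Quantile normalization gave 463 and 466 in the last, where 520 and 269 were called. Background correction and slide could not be varied, since scanner files were not used here.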
